A study of Mus musculus with 6 samples.

Results

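The genes of cholesterol synthesis, uptake and efflux were examined in bulk RNA-seq of CD11b+ cells from subcutaneous lung tumors of mice. They were 29 genes chosen by symbol from the 25701 genes of the deposited count table, and all 29 were found and passed the filter on low counts that left 13485 genes for testing. The 3 MCT2 KO libraries and the 3 MCT2 CO libraries came from mice of a floxed *Slc16a7* line on a C57BL/6 background that also carried Cre (MCT2 loxP/loxP;Cre+), obtained with the tamoxifen-inducible mCre-Tg line. *Slc16a7* encodes the monocarboxylate transporter MCT2. At 8 weeks of age MCT2 KO mice were given tamoxifen and MCT2 CO mice vehicle alone, TC1 cells, a mouse lung epithelial tumor line, were then placed under the skin of the flank, and tumors grew for 24 days. The deletion was induced in the whole host, while the TC1 cells kept their own genes. The groups had no tamoxifen-treated counterpart without Cre, so that tamoxifen, Cre activity and the loss of MCT2 cannot be told apart. The paper also reports larger tumors in MCT2 KO than in MCT2 CO mice, and tumor size cannot be told apart from these either. The labels give 3 replicates per group without naming single mice, and p values therefore describe the spread between these libraries, which may be technical in part. Lung is the tissue named in the sample records, but the tumors were in the flank.

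Total counts ranged from 24863611 to 31713704 per library, and levels are given as CPM, read counts scaled to the library total after TMM normalization. The targeted gene *Slc16a7* had 287 to 481 counts in MCT2 CO and 133 to 196 in MCT2 KO, which gave -1.05 on the log2 scale (standard error 0.24, adjusted p = 0.370, edgeR; 0.00908 with DESeq2). CD11b itself (*Itgam*) had 1 count in all, and 99.1% of its exon bases lie inside the span of another listed gene, so the CD11b selection could not be checked on it. Such overlaps were read from GENCODE M21, whose gene positions differ from those of the count table, and so may not be the ones met when the reads were counted. The 10 macrophage markers, *Csf1r*, *Cd68* and *Adgre1* among them, summed to 4660 to 6210 CPM in MCT2 CO and 4820 to 8590 in MCT2 KO. All 10 had a log2 fold change above 0, with a median of 0.25, and no marker found in the table was at 0 in all libraries. The sum of 8 fibroblast markers was 2510 to 4070 CPM in MCT2 CO and 2110 to 2260 in MCT2 KO, without overlap, and all 8 had a log2 fold change below 0 (median -0.58), with 3 called by DESeq2. The sum of 10 genes of lipid-associated macrophages was 5130 to 5390 and 4380 to 4780, although 9 of the 10 had a log2 fold change above 0 (median 0.40). The exception was *Spp1*, the most abundant of them. The sum of neutrophil markers overlapped between the groups (83.3 to 103 against 69.6 to 186), but 7 of the 8 tested had a log2 fold change above 0 (median 1.7), 6 had every MCT2 KO library above every MCT2 CO library, and DESeq2 called 5. The B cell sum overlapped as well (87.4 to 103 against 28.3 to 117), while 7 of 8 tested were lower (median -0.97), 4 without overlap, and DESeq2 called 2. The dissociation response, a sign of sample handling, summed to 11200 to 13000 CPM in MCT2 CO and 8880 to 11400 in MCT2 KO. Of its 10 genes, 9 were lower in MCT2 KO (median -0.33), 4 of them without overlap, and DESeq2 called 1. Over all 13485 genes tested, every MCT2 KO library was above every MCT2 CO library for 7.07% and below for 8.77%, and DESeq2 called 79. The part of these cell types and of handling in the results below was not tested. Sums also overlapped for T cells (53.9 to 78.5 against 27.2 to 113), endothelium (92.1 to 97.3 against 80.3 to 133), epithelium (14.4 to 21.2 against 19.0 to 33.9) and the cell cycle (2960 to 3070 against 2830 to 3320), and DESeq2 called 0 genes of these lists. Only 2 of the 7 epithelial genes passed the filter, so that sum is a weak measure of TC1 RNA.

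Cells make cholesterol from acetyl-CoA through mevalonate, squalene and lanosterol, and the genes of this route are switched on together when membranes of the endoplasmic reticulum run short of sterol. The sensor is SCAP, which carries the membrane-bound SREBP transcription factors to the Golgi for cleavage unless the INSIG proteins hold it back. Surplus cholesterol has the opposite effect: it yields oxysterols that activate the LXR receptors, which raise the transporters ABCA1 and ABCG1, apolipoprotein E and the ubiquitin ligase MYLIP, and SOAT1 turns what remains into stored ester. Macrophages take up lipoproteins and dead cells, and they depend on this efflux arm to dispose of the sterol.

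Promoters of members on either side of this balance are shown for orientation, because the SREBP and LXR factors act there. RefSeq windows on GRCm38.p6, from 250 bases before to 50 bases after a start, were held for 24 of the 29 members. Capitals mark matches on either strand to the sterol regulatory element TCACNCCAC, the NF-Y motif CCAAT and a DR4 repeat of the LXR type, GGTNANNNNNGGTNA, and no matches of these motifs overlapped in the windows printed. *Hmgcs1* (chr13:119690101-119690400, plus strand) held the sterol regulatory element, as did 1.44% of all gene symbols in at least 1 window. *Cyp51* (chr5:4104648-4104947, minus strand), *Hsd17b7* (chr1:169969156-169969455, minus strand) and *Idi1* (chr13:8885356-8885655, plus strand) are synthesis members with non-overlapping groups. *Abca1* (chr4:53159846-53160145, minus strand) and the third window of *Srebf1* (chr11:60210422-60210721, minus strand) held the DR4 repeat, found in 0.818% of symbols. The matches are descriptions of letters, not of binding.
Hmgcs1: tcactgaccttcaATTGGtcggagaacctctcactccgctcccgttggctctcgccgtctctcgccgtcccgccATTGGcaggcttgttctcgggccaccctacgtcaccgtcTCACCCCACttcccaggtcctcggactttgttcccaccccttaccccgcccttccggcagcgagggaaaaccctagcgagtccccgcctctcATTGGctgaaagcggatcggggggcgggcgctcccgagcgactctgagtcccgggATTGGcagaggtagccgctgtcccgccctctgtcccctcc
Cyp51: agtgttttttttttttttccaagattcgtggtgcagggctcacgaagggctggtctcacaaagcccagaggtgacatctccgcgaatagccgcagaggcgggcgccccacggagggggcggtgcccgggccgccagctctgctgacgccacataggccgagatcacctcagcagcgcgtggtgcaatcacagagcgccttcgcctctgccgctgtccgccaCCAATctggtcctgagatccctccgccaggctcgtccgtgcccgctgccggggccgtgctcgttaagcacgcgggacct
Hsd17b7: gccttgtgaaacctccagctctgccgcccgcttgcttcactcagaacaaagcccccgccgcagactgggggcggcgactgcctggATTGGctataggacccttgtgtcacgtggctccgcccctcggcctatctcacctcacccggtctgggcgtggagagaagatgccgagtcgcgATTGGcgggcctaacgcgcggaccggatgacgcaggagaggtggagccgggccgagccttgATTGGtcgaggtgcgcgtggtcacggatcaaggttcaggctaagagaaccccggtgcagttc
Idi1: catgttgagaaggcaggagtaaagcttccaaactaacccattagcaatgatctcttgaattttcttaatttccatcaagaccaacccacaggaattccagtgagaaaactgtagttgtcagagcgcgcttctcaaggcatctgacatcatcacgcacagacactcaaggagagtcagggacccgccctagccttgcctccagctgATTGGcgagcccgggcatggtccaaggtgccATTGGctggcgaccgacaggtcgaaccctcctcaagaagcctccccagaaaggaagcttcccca
Abca1: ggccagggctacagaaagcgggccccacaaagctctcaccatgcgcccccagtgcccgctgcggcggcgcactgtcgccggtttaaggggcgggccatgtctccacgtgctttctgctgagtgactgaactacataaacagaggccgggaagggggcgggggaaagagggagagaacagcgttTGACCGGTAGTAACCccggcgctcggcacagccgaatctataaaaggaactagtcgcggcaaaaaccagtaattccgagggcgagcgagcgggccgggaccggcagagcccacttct
Srebf1: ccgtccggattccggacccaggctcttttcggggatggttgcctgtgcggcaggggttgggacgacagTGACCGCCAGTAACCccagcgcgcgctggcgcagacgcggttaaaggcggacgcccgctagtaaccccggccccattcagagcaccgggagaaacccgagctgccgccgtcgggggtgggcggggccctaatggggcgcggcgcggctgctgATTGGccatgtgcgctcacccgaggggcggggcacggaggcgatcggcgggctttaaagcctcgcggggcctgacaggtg

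The CCAAT motif was present in 12 of the 13 synthesis members with a window and in 1 of the 5 efflux members, against 41.1% of all symbols. The *Hmgcs1* element begins 137 bases before the start, and the DR4 repeat of *Abca1* begins 67 bases before it.

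The comparison of MCT2 KO with MCT2 CO asked whether the synthesis arm and the efflux arm differed between the groups. A gene was called where the adjusted p of edgeR's quasi-likelihood test did not exceed 0.05 and the log2 fold change was 0.58 or more in size. No member was called, and 0% of the 13485 genes tested were. Adjusted p values of the members ran from 0.430 (*Cyp51*) to 0.996 (*Dhcr7*). DESeq2's Wald test, the tool of the study, also called 0 members, against 0.448% of the 18508 genes with at least 1 count. Among the 13485 genes that passed the filter, as all members did, it called 79. At an unadjusted p under 0.05, 6 members were lower in MCT2 KO (20.7% of the 29, against 5.6% of all genes tested) and 2 were higher (6.9%, against 3.77%). The 6 were the synthesis enzymes *Cyp51*, *Hsd17b7*, *Sqle* and *Idi1* with the regulators *Insig1* and *Srebf2*, and the 2 were *Abca1* and *Soat1*. By fold change, 15 of 16 synthesis members were lower in MCT2 KO, with a median log2 fold change of -0.20, and 5 of 6 efflux members were higher, with a median of 0.37. The median of all genes tested was 0.000366, and 49.9% of them were lower. Every MCT2 KO library lay below every MCT2 CO library for 4 members (13.8%, against 8.77% of all genes) and above for 3 (10.3%, against 7.07%), and each of the 7 had p = 0.1 in an exact two-sided permutation test, the smallest that 3 against 3 allow.

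**Figure D1:**
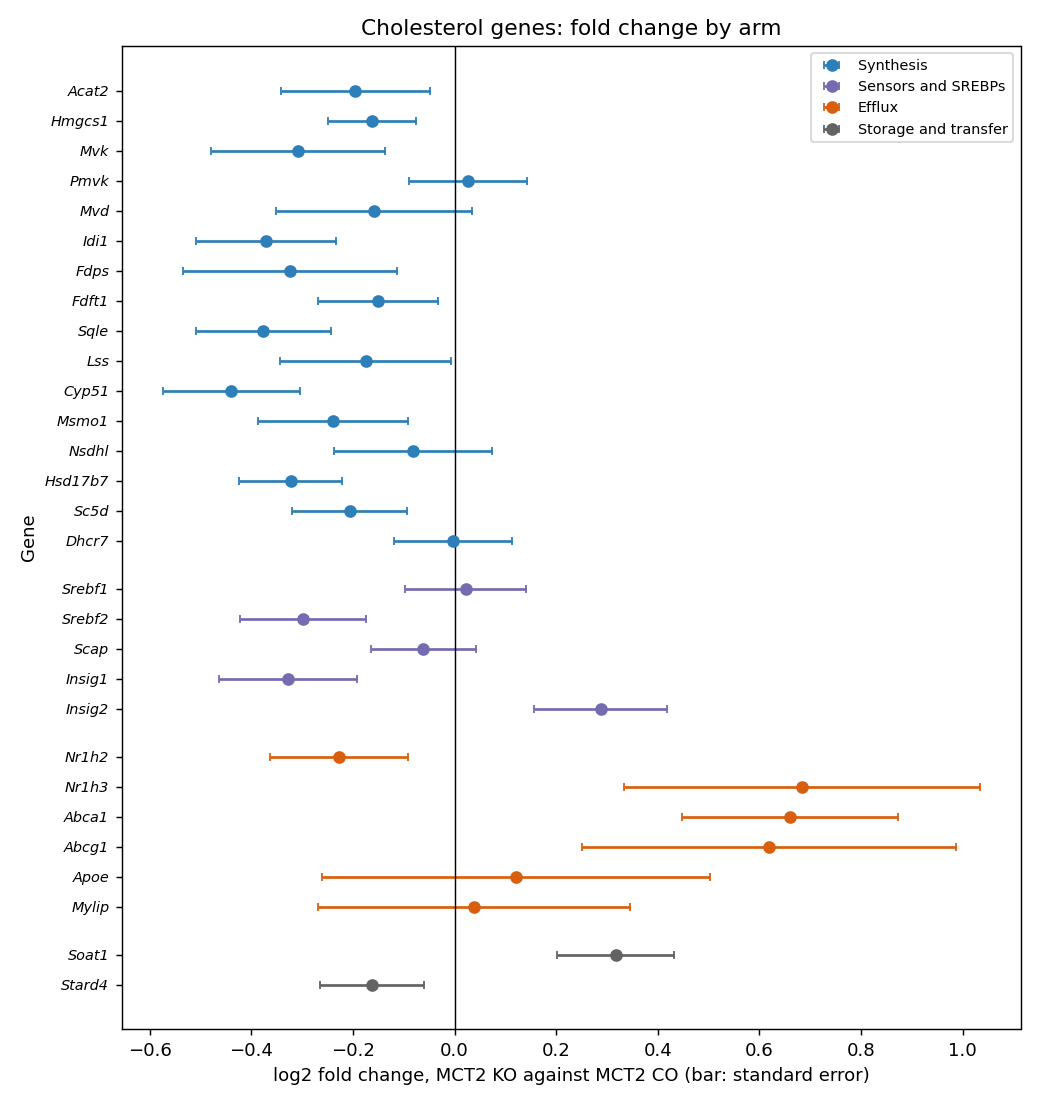
Log2 fold change of MCT2 KO against MCT2 CO for each of the 29 genes (x axis), with the standard error from edgeR as a bar and the genes grouped by arm (y axis). The synthesis arm lies between -0.44 and 0.027 and the efflux arm between -0.23 and 0.68.

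From acetyl-CoA to farnesyl diphosphate, 6 of 7 enzymes had a lower mean in MCT2 KO, with a median log2 fold change of -0.20. *Idi1*, the isomerase that makes dimethylallyl diphosphate, had 12, 11.4 and 15 CPM in the MCT2 CO libraries, here and below in order of replicate number, and 9.31, 10.3 and 10.1 in MCT2 KO. All MCT2 KO libraries were below all MCT2 CO libraries, and the log2 fold change was -0.37 (standard error 0.14, unadjusted p = 0.0279, adjusted p = 0.491, edgeR). The span of *Gm48574* holds 9.22% of its exon bases. *Hmgcs1*, the HMG-CoA synthase, had 85.4, 77.0 and 90.9 CPM in MCT2 CO and 76.8, 72.3 and 77.4 in MCT2 KO. Its groups overlapped by the second MCT2 CO library, which lay below the third MCT2 KO library (log2 fold change -0.16, standard error 0.087). The thiolase *Acat2* (-0.20), the mevalonate kinase *Mvk* (-0.31) and the decarboxylase *Mvd* (-0.16) were lower on average with overlapping libraries. *Pmvk*, which encodes phosphomevalonate kinase, was the member of the arm with the opposite sign (log2 fold change 0.027, standard error 0.12), and its groups overlapped at 45.8 to 54.5 CPM against 43.6 to 55.8. *Fdps*, the farnesyl diphosphate synthase, was counted at 132 to 199 reads in MCT2 CO and 119 to 146 in MCT2 KO, and 79.6% of its exon bases lie inside the span of *Gm43738*. Its log2 fold change was -0.32 (standard error 0.21), and the part of that overlap was not tested.

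From squalene to cholesterol, all 9 enzymes had log2 fold changes below 0, with a median of -0.21. *Cyp51*, the lanosterol demethylase (chromosome 5 of GRCm38, 4081145 to 4104746), had 185, 201 and 265 CPM in MCT2 CO and 160, 164 and 156 in MCT2 KO. The MCT2 KO libraries sat within a narrow band below every MCT2 CO library, and the log2 fold change was -0.44 (standard error 0.14, unadjusted p = 0.0115, adjusted p = 0.430, edgeR). *Sqle*, squalene monooxygenase (chromosome 15, 59315077 to 59331192), had 81.3, 93.5 and 118 CPM in MCT2 CO and 73.3, 78.1 and 74.2 in MCT2 KO. Here too the groups did not overlap, with a log2 fold change of -0.38 (standard error 0.13, unadjusted p = 0.0219, adjusted p = 0.477, edgeR). *Hsd17b7*, a sterol ketoreductase (chromosome 1, 169949535 to 169969241), had 58.3, 60.4 and 73.0 CPM in MCT2 CO and 49.6, 52.6 and 51.0 in MCT2 KO. Its log2 fold change was -0.32 (standard error 0.10, unadjusted p = 0.0133, adjusted p = 0.433, edgeR), again without overlap. The squalene synthase *Fdft1* (-0.15), the lanosterol synthase *Lss* (-0.18), the methyl oxidase *Msmo1* (-0.24) and the desaturase *Sc5d* (-0.21) overlapped between the groups. For *Fdft1*, 18.3% of the exon bases lie inside the span of *Ctsb*, against 3.76% inside *Akap9* for *Cyp51*. For *Nsdhl*, a sterol dehydrogenase, the log2 fold change was -0.082 (standard error 0.16), and for *Dhcr7*, which encodes a reductase at the end of the route, it was -0.0029 (standard error 0.12).

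The order of the libraries was much alike from gene to gene in the synthesis arm. MCT2 CO replicate 3 was the highest of all 6 libraries in 15 of the 16 genes, *Pmvk* being the exception, and MCT2 CO replicate 1 was the lowest MCT2 CO library in 14. The mean log2 CPM of the 16 genes was 5.26, 5.47 and 5.74 in the MCT2 CO libraries, in order of replicate number, and 5.26, 5.28 and 5.31 in MCT2 KO. The spread was therefore 0.24 (SD, n = 3) in MCT2 CO and 0.025 in MCT2 KO, and MCT2 CO replicate 1 was level with the MCT2 KO libraries. Per gene, the distance on the log2 scale between the highest and the lowest library had a median of 0.53 in MCT2 CO and 0.15 in MCT2 KO, and was wider in MCT2 CO for 15 of 16 genes. Over all genes tested, with 0.5 added to the CPM, the medians were 0.26 and 0.27. MCT2 CO replicate 3 exceeded MCT2 CO replicate 1 by a median of 0.53, which is more than the 0.20 between the groups. Without MCT2 CO replicate 3, 12 of 16 genes were lower, the median was -0.087, and 2 genes had an unadjusted p under 0.05, *Cyp51* (log2 fold change -0.27) and *Hsd17b7* (-0.22), while 3.33% of all genes tested were lower at that level. *Sqle* was then at -0.22 and *Idi1* at -0.24, *Fdps* at -0.13, *Mvk* at -0.10, *Msmo1* at -0.072, *Acat2* at -0.069 and *Fdft1* at -0.047, and *Mvd* (0.042), *Lss* (0.026), *Nsdhl* (0.12) and *Dhcr7* (0.10) were above 0. Without MCT2 CO replicate 1, all 16 were lower with a median of -0.35, and 11 had an unadjusted p under 0.05, where 6.24% of all genes tested were lower at that level. MCT2 CO replicate 3 also had the highest sum of fibroblast markers, 4070 CPM, and the MCT2 KO libraries the lowest, though MCT2 CO replicate 1 stood above them at 2510 CPM with a synthesis mean level with theirs. The paper states that telling TC1 cells from host stromal cells for certain would take lineage tracing or copy-number analysis. Which of these cells the fibroblast-marker RNA came from was not tested, nor was its part in the synthesis arm.

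**Figure D2:**
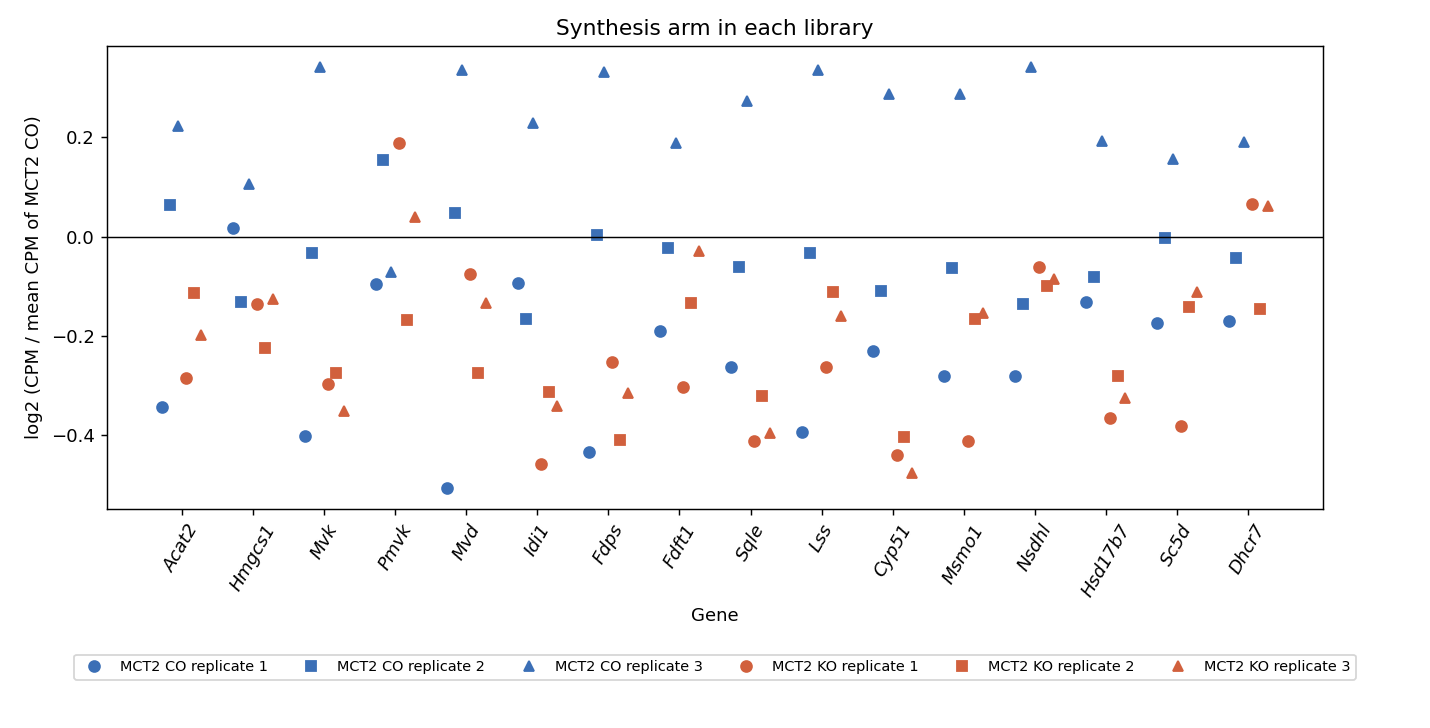
The 16 synthesis genes (x axis) in each library, as log2 of the CPM over the mean CPM of MCT2 CO (y axis), with a symbol per replicate and a color per group. MCT2 CO replicate 3 is the top symbol in 15 of 16 genes, while MCT2 CO replicate 1 lies at or below the highest MCT2 KO library in 11.

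Among the 5 regulators, 3 were lower and 2 higher on average in MCT2 KO. *Srebf2*, whose product drives the synthesis genes, had 303, 356 and 386 CPM in MCT2 CO and 318, 255 and 277 in MCT2 KO. The groups overlapped because MCT2 KO replicate 1 exceeded MCT2 CO replicate 1 (log2 fold change -0.30, standard error 0.12, unadjusted p = 0.0422, adjusted p = 0.525, edgeR), and without MCT2 CO replicate 3 the log2 fold change was -0.22. *Srebf1*, whose product favors fatty acid genes, had 113, 135 and 112 CPM in MCT2 CO and 138, 107 and 122 in MCT2 KO. The difference was smaller than the spread between libraries (log2 fold change 0.022, standard error 0.12). *Insig1*, itself induced by SREBP, had 113, 106 and 138 CPM in MCT2 CO and 107, 81.3 and 96.5 in MCT2 KO, where the highest MCT2 KO library just exceeded the lowest MCT2 CO library. Its log2 fold change was -0.33 (standard error 0.14, unadjusted p = 0.0409, adjusted p = 0.524, edgeR), and without MCT2 CO replicate 3 it was -0.21. *Insig2*, the other SCAP anchor, had the opposite sign, with 25.6, 25.6 and 20.2 CPM in MCT2 CO and 25.7, 32.4 and 29 in MCT2 KO. The groups did not overlap, although the lowest MCT2 KO library equalled the highest MCT2 CO libraries to within 0.1 CPM (log2 fold change 0.29, standard error 0.13, adjusted p = 0.548, edgeR). Without MCT2 CO replicate 3 it was 0.18. Divided by the annotated exon length, *Insig1* stood at 38.5 CPM per kb in MCT2 CO and *Insig2* at 6.85, and in MCT2 KO at 30.7 and 8.36. Exon lengths, here and below, are those of GENCODE M21. The counts may rest on another annotation, so per-kb comparisons between genes are tentative. *Scap*, the escort of the SREBPs, overlapped between the groups (log2 fold change -0.062, standard error 0.10), with 13.2% of its exon bases inside the span of *5830462I19Rik*.

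In the efflux arm, *Abca1*, the transporter that loads cholesterol onto lipid-poor apolipoproteins (chromosome 4, 53030787 to 53159895), had 235, 169 and 151 CPM in MCT2 CO and 376, 258 and 244 in MCT2 KO. Every MCT2 KO library was above every MCT2 CO library, and the log2 fold change was 0.66 (standard error 0.21, unadjusted p = 0.0143, adjusted p = 0.436, edgeR). Its adjusted p was 0.105 with DESeq2 on every gene counted at all, and ran to 0.854 over the 14 alternatives. Without MCT2 KO replicate 1 the log2 fold change was 0.45, and without MCT2 CO replicate 3 it was 0.53 (unadjusted p = 0.0501). *Abcg1*, which passes cholesterol to HDL, had 90.4, 87.1 and 51.0 CPM in MCT2 CO and 143, 55.7 and 152 in MCT2 KO. MCT2 KO replicate 2 was below the first and second MCT2 CO libraries, and the log2 fold change was 0.62 with a standard error of 0.37. It was 0.39 without MCT2 KO replicate 3, 0.40 without MCT2 CO replicate 3 and 0.96 without MCT2 KO replicate 2. The LXR receptor *Nr1h3* (LXR alpha) had 41.4, 27.4 and 16.1 CPM in MCT2 CO and 57.4, 29.1 and 50.4 in MCT2 KO. Its groups overlapped, and its log2 fold change of 0.68 (standard error 0.35) was 0.40 without MCT2 CO replicate 3 and 1.07 without MCT2 CO replicate 1. *Nr1h2* (LXR beta) had 72.9, 78.0 and 73.4 CPM in MCT2 CO and 75.4, 50.9 and 65.3 in MCT2 KO. MCT2 KO replicate 2 was the lowest, and the log2 fold change of -0.23 (standard error 0.14) was -0.087 without it. Per kb of exon, *Nr1h2* exceeded *Nr1h3* in MCT2 CO (22.3 and 11.3 CPM per kb), and they stood close in MCT2 KO (19.0 and 18.1).

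*Apoe*, which encodes the apolipoprotein of macrophage efflux, was the most abundant member per kb of exon. It had 4840, 3220 and 2650 CPM in MCT2 CO and 6370, 2300 and 2980 in MCT2 KO. The group means differed little beside that spread (log2 fold change 0.12, standard error 0.38), and the sign turned without MCT2 KO replicate 1 (-0.43) or MCT2 CO replicate 3 (-0.054). *Mylip*, whose product marks lipoprotein receptors for degradation and so limits uptake, had 45.1, 37.9 and 29.6 CPM in MCT2 CO and 52.2, 20.8 and 43.0 in MCT2 KO. Its log2 fold change was 0.038 (standard error 0.31).

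**Figure D3:**
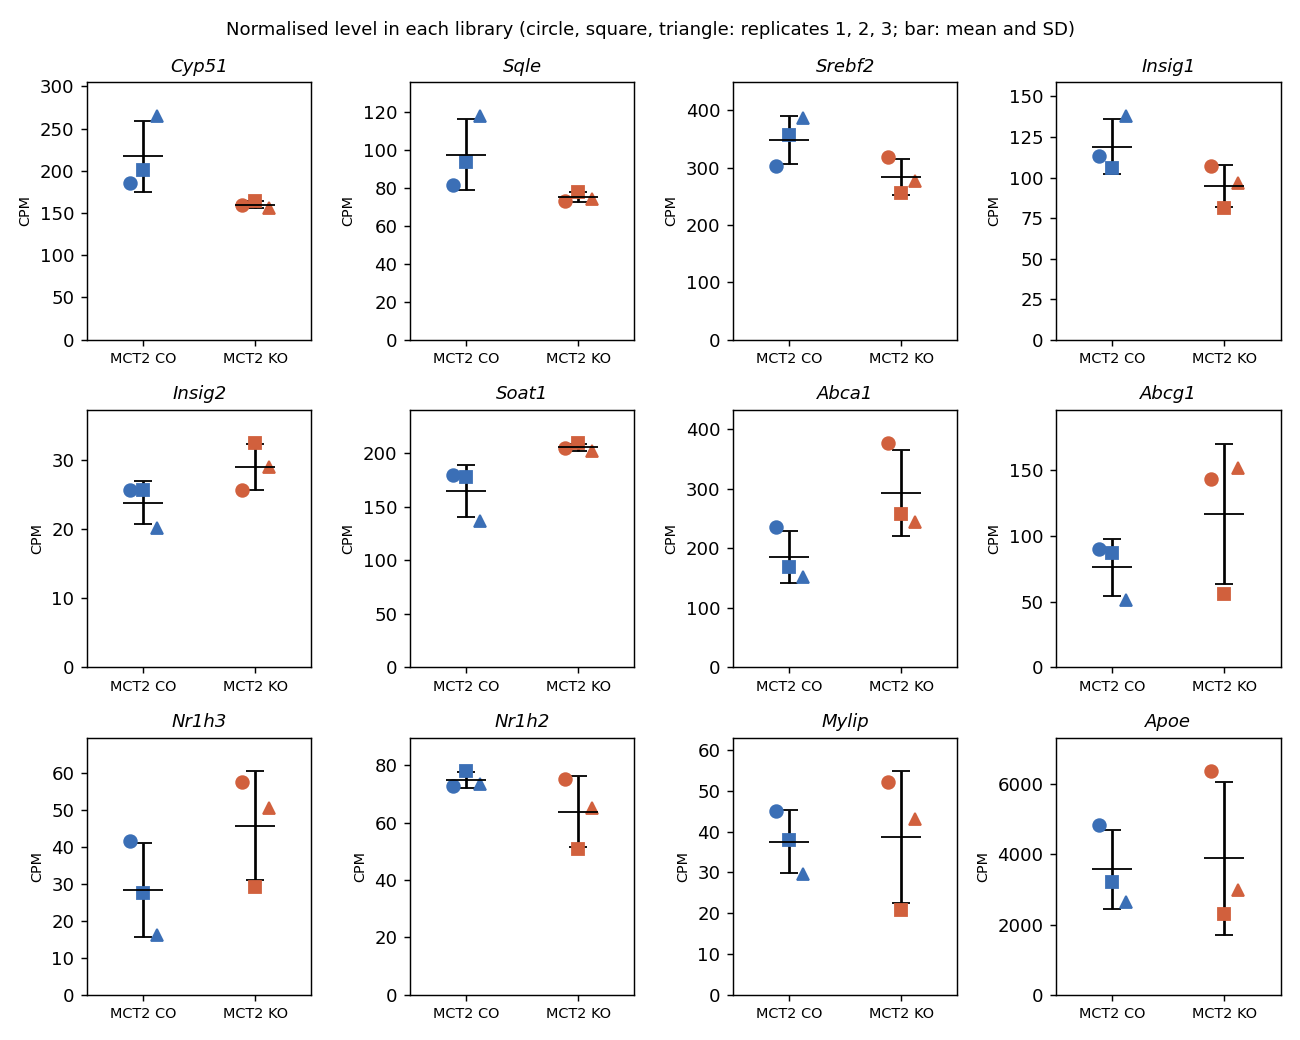
CPM (y axis, from 0) of 12 members in each library of MCT2 CO and MCT2 KO, with circles, squares and triangles for replicates 1, 2 and 3 and black bars for the mean and SD. *Cyp51* and *Sqle* form a tight cluster in MCT2 KO, whereas *Abcg1*, *Nr1h3*, *Mylip* and *Apoe* have their lowest MCT2 KO value in replicate 2.

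The efflux arm ranked the libraries in another order. Its mean log2 CPM over 6 genes was 7.28, 6.97 and 6.57 in MCT2 CO and 7.69, 6.65 and 7.31 in MCT2 KO. The group means were 6.94 ± 0.36 and 7.22 ± 0.53 (SD, n = 3), a difference of 0.28 within these spreads. MCT2 KO replicate 1 was the highest library in 4 of the 6 genes, and the lowest was MCT2 CO replicate 3 in 3 and MCT2 KO replicate 2 in the other 3. The median log2 fold change of the arm was 0.11 without MCT2 KO replicate 1 and 0.17 without MCT2 CO replicate 3, each with 3 of 6 genes higher, and 0.57 without MCT2 KO replicate 2. The sum of macrophage markers ran in a like order, from 4660 CPM in MCT2 CO replicate 3 and 4820 in MCT2 KO replicate 2 to 8590 in MCT2 KO replicate 1. In such bulk samples, fewer macrophages and less of a transcript per macrophage cannot be told apart. Values per 1000 CPM of summed macrophage markers, a scale added once the data had been seen, did not overlap for *Abca1*, at 37.9, 31.0 and 32.3 in MCT2 CO and 43.8, 53.5 and 39.5 in MCT2 KO. On that scale the difference of mean log2 values was 0.43 for *Abca1*, and 0.50 for *Nr1h3* and 0.30 for *Abcg1*, both with overlapping groups. *Nr1h2* was then below MCT2 CO in every MCT2 KO library (-0.48), *Apoe* (-0.20) and *Mylip* (-0.27) had the opposite sign, and the median of the arm was 0.049.

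**Figure D4:**
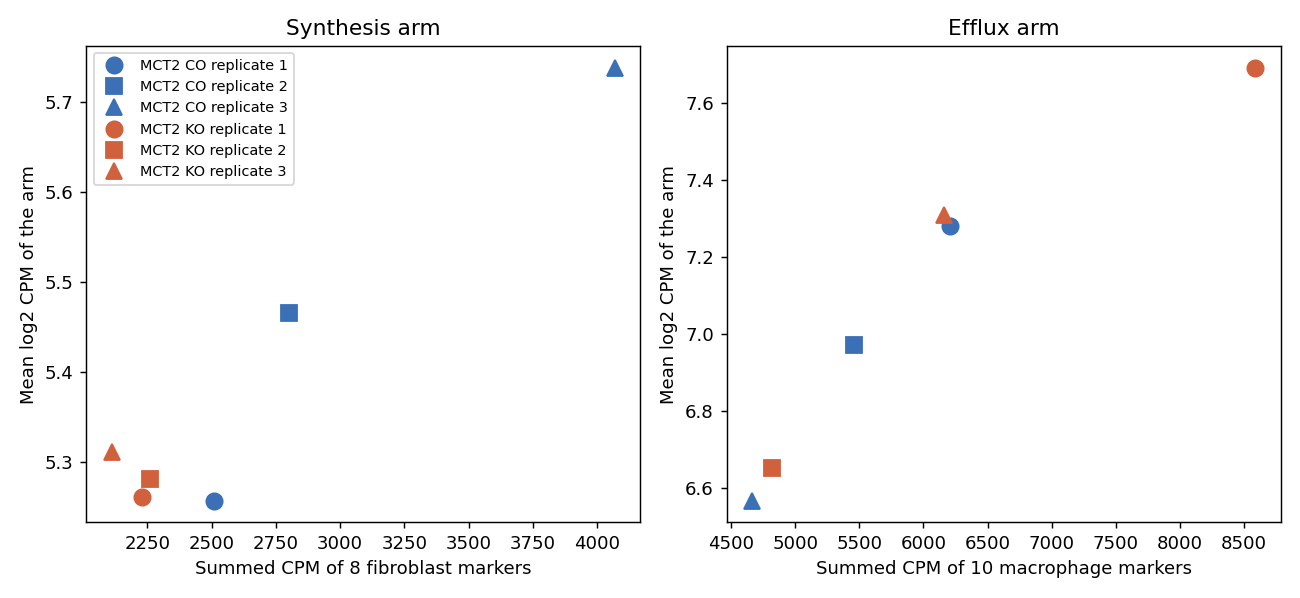
Mean log2 CPM of the synthesis arm against the summed CPM of 8 fibroblast markers (left) and of the efflux arm against that of 10 macrophage markers (right), a point per library. MCT2 CO replicate 3 is at the top right on the left panel (4070 CPM) and at the bottom left on the right panel (4660 CPM), where MCT2 KO replicate 1 is at the top right (8590 CPM).

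Set against each other within a library, the synthesis mean minus the efflux mean was -2.02, -1.5 and -0.83 in MCT2 CO and -2.43, -1.37 and -2.00 in MCT2 KO on the log2 CPM scale. MCT2 CO replicate 3 was the library with the most synthesis relative to efflux and MCT2 KO replicate 1 that with the least. The groups overlapped, with means of -1.45 ± 0.60 and -1.93 ± 0.53 (SD, n = 3). The value depends on gene length and serves only to rank the libraries.

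Storage and transfer were represented by *Soat1* and *Stard4*. *Soat1*, which esterifies cholesterol for storage in droplets (chromosome 1, 156424525 to 156474331), had 180, 178 and 137 CPM in MCT2 CO and 205, 209 and 202 in MCT2 KO. All MCT2 KO libraries were above all MCT2 CO libraries within a range of 0.050 on the log2 scale, and the log2 fold change was 0.32 (standard error 0.12, unadjusted p = 0.0249, adjusted p = 0.489, edgeR). Without MCT2 CO replicate 3 it was 0.20. Per 1000 CPM of macrophage markers the groups overlapped, at 29 to 32.5 in MCT2 CO and 23.9 to 43.3 in MCT2 KO. *Stard4*, a sterol carrier of the cytosol that follows SREBP, had 51.0, 48.0 and 60.8 CPM in MCT2 CO and 45.9, 48.8 and 48.1 in MCT2 KO. It sided with the synthesis genes in sign and in its highest library, MCT2 CO replicate 3 (log2 fold change -0.16, standard error 0.10), and was at -0.057 without that library.

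Other genes of the pathway were read from the same fit. Of 51 tested, 0 were called by edgeR or DESeq2. At an unadjusted p under 0.05, 4 were higher (7.84%, against 3.77% of all genes tested) and 0 lower (against 5.6%) in MCT2 KO. Every MCT2 KO library was above every MCT2 CO library for 10 (19.6%, against 7.07%) and below for 1 (1.96%, against 8.77%). The other synthesis genes were divided in sign, with 6 of 11 lower and a median log2 fold change of -0.029. The LXR targets and partners divided evenly, 6 higher and 6 lower of 12 with a median of 0.014, *Mertk* being also 1 of the 10 macrophage markers. Among them *Lpcat3*, an LXR-induced acyltransferase of phospholipids, had 30.4, 30.5 and 27.0 CPM in MCT2 CO and 38.0, 35.8 and 36.7 in MCT2 KO (log2 fold change 0.33, standard error 0.087, adjusted p = 0.396, edgeR). For *Lpcat3*, 10.2% of the exon bases lie inside the span of *Emg1*. The genes for SREBP processing had a median of 0.046 over 9.

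The list of lysosomal release, trafficking and ester hydrolysis genes also held lipoprotein receptors. Of its 19 genes, 16 were higher, with a median of 0.096. Every MCT2 KO library was above every MCT2 CO library for 6 of them (31.6%, against 7.07% of all genes). The 6 were *Nceh1*, *Stard5*, *Lrpap1* and the receptors *Lrp1* (log2 fold change 0.17, standard error 0.098), *Scarb1* (0.063, standard error 0.073) and *Vldlr* (0.47, standard error 0.215). *Vldlr* had 13.6, 14.9 and 7.9 CPM in MCT2 CO and 16, 17.1 and 17.4 in MCT2 KO (unadjusted p = 0.0606, edgeR). MCT2 CO replicate 3 was thus far below the other MCT2 CO libraries. The lysosomal genes *Lipa*, *Npc2*, *Lamp2*, *Stard3* and *Scarb2* overlapped between the groups. *Nceh1*, a neutral cholesterol ester hydrolase, had 55.4, 52.8 and 45.6 CPM in MCT2 CO and 87.8, 69.4 and 64.6 in MCT2 KO. Its log2 fold change was 0.53 (standard error 0.13, unadjusted p = 0.00412, adjusted p = 0.383, edgeR). The sterol carrier *Stard5* averaged 17.3 ± 1.29 CPM over the MCT2 KO libraries against 13.6 ± 0.80 (SD, n = 3), without overlap and with a log2 fold change of 0.35. Of its exon bases, 43.9% lie inside the spans of *Il16* and *Gm45838*. For *Lrpap1*, a chaperone of lipoprotein receptors, the log2 fold change was 0.19 (standard error 0.080), also without overlap.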

How the data were processed

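Poly-A RNA of CD11b+ cells was sequenced from 3 MCT2 CO and 3 MCT2 KO libraries. Per the methods and the processing notes, reads were screened with FastQC 0.12.0 and MultiQC 1.28, aligned to GRCm38 with STAR 2.7.11b and counted with featureCounts 2.1.1 (Subread), and DESeq2 1.18.1 was the study's test. The authors deposited raw read counts per gene, unnormalized and unpooled. Annotation, feature type and strand setting are not given in the sources used here. Every gene length in the table equals the whole gene span, and 2.22% of the start positions match GENCODE M21 on GRCm38, although GRCm38 is the build named. The counts may thus rest on another build or annotation, which was not identified. Printed positions were taken from GENCODE M21 by identifier. The share of a member's exons inside the spans of other listed genes, given where above 3%, describes GENCODE M21 and not necessarily the annotation behind the counts.

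Low counts were removed with filterByExpr at a minimum of 10 per library and 15 in total, and the rest was normalized by TMM and compared with edgeR 4.0.16 (quasi-likelihood test, R 4.3.3), with Benjamini–Hochberg adjustment over 13485 genes. Standard errors are the log2 fold change over the square root of its F statistic. Arm means used log2 CPM with a prior count of 2. The fit was tested on simulated counts, in which the planted changes were larger than that of any member. The simulation therefore does not show whether changes of the size reported here would be found. The alternatives were DESeq2 1.42.0, limma-voom (limma 3.58.1), other normalizations, filters and thresholds, a replicate block and each library left out. The members and lists were chosen with earlier results of these data known. All 29 members are named, with every library's value for those at an unadjusted p under 0.05, the paralog pairs and a few listed symbols. Of other pathway genes, those at an unadjusted p under 0.05 are named, with *Mertk* and the receptors and lysosomal genes of the trafficking list. *Rnf139*, *Apoc1*, *Apoc2* and *Apoc4* were listed but did not pass the filter. No 2 libraries of a group were alike enough to be the same library.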

Additional observations from a re-analysis of the deposited data

How the results depend on the processing

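No member and no other gene of the pathway was called under any alternative run. Over the whole table, edgeR called 0 genes, DESeq2 called 83 on all genes with at least 1 count and 79 on the filtered genes, and edgeR called 2 without a filter beyond 1 count and from 0 to 2 with each library left out (2 without MCT2 KO replicate 2). The median log2 fold change of the synthesis arm kept its sign throughout, from -0.35 to -0.087, as did that of the efflux arm (0.11 to 0.58, and 0.049 per summed macrophage marker) and the difference between them (-0.93 to -0.26). With the replicate block in edgeR the medians were -0.19 and 0.28, and no call changed. Same-numbered libraries correlated at 0.216, -0.247 and -0.161 in their deviations from the group means, and MCT2 CO replicates 2 and 3 correlated best with another number, so the numbers were not taken as pairs. Single members near 0 turned in sign. *Dhcr7* came to 0.0090 and 0.0036 with DESeq2 on all and on filtered genes, 0.0037 with DESeq2 size factors, 0.0034 without a filter and 0.0015 with the replicate block. *Mylip* came to -0.065 with limma-voom, -0.031 with the replicate block and -0.27 per summed macrophage marker, and *Apoe* to -0.20 on that last scale. With each library left out, the ranges were -0.052 to 0.12 for *Pmvk*, -0.36 to 0.042 for *Mvd*, -0.34 to 0.026 for *Lss*, -0.20 to 0.12 for *Nsdhl*, -0.080 to 0.10 for *Dhcr7*, -0.065 to 0.12 for *Srebf1*, -0.14 to 0.0060 for *Scap*, -0.43 to 0.41 for *Apoe* and -0.23 to 0.34 for *Mylip*. The causes were not tested. *Fdps* had the fewest reads of the members, and the part of depth or of its overlap with *Gm43738* in that was not tested.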
